A study of Homo sapiens with 4 samples.

Results

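The poly(A) RNA of a library described as A549 cells overexpressing DCBLD2 was compared, gene by gene, with that of one described as A549 cells carrying the empty vector. A549 is an established human lung adenocarcinoma line. The study sequenced 4 libraries, 1 per condition, of which these are 2, and the other conditions were a scramble control hairpin and a hairpin against DCBLD2 (shDCBLD2). By the study's methods the coding sequence of DCBLD2 was placed in a lentiviral expression vector with blasticidin resistance, the hairpins in another lentiviral vector with puromycin resistance, and virus was produced in a human embryonic kidney line, so the vector of the hairpins differed from that of the overexpression pair. Blasticidin selection is stated for the overexpression vector, and selection of the hairpin cells is not described in the sources used here. The labels give no clone, no passage and no replicate culture. The authors deposited read counts for 57905 genes, with 16601633 counts in all for the overexpression-labelled library, 18718562 for the vector, 19104052 for scramble control and 21537283 for shDCBLD2. Counts were divided by these totals to give counts per 1000000 (CPM), and the 13964 genes with a mean of at least 1 CPM over the 4 libraries were described.

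DCBLD2 is a membrane protein with a CUB, an LCCL and a discoidin domain. The neuropilins, which also carry CUB and discoidin domains, are coreceptors of semaphorins and vascular endothelial growth factors. It is known as a partner of receptor tyrosine kinases. A549 cells keep features of distal lung and of gut-type glandular epithelium, among them mucins, keratins and a strong antioxidant programme, and are known to have lost both copies of the CDKN2A locus on chromosome 9.

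The targeted gene went against the label. The deposited coordinates, whose build is not given in the sources used here, place DCBLD2 (ENSG00000057019) on chromosome 3 from 98514785 to 98620533. It stood at 241 CPM in the overexpression-labelled library, 426 with the vector, 516 in scramble control and 198 in shDCBLD2. Its log2 ratio of the overexpression-labelled library to the vector was -0.82 (-0.88 to -0.77), and against scramble control it was -1.10. Centred on genes of like GC content, a step described below, DCBLD2 stood at -0.36 against the vector. Per length its level was 21.4 FPKM against 37.8 FPKM with the vector. The hairpin library, labelled for knockdown, and the overexpression-labelled library thus held the lower values of DCBLD2 among the 4, and every direction below is that of a library in which the transcript was lower than in its control. Its relatives of the same list were also below the vector without reaching a 2-fold difference, at a log2 ratio of -0.58 (-0.71 to -0.45) for DCBLD1, -0.40 (-0.47 to -0.32) for NRP1 and -0.47 (-0.56 to -0.38) for NRP2. The list of these 4 genes had a median of -0.53, or -0.44 after the same centring.

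Here a log2 ratio was taken with a prior count of 2, and the range in parentheses is an exact Clopper-Pearson 95% interval that covers counting error only. Since each side had 1 library, the differences lack a check by replicates and come without p-values. A gene was called higher or lower where the ratio reached 2-fold and the interval did not include 0 on the log2 scale. A fold against 0 counts is a lower bound, computed against 3 counts in the vector library. Below, 4 values in a row are in the order overexpression-labelled library, vector, scramble control and shDCBLD2, and a value after a gene name is its log2 ratio to the vector, with the interval where 2 bounds follow, unless it is written as a fold. In bulk RNA, fewer cells of a type and less RNA per cell cannot be told apart.

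The overexpression-labelled library stood apart from the other 3. Genes with 20 or more counts in a library and no more than 3 in any other numbered 156 here, against 1 for the vector, 2 for scramble control and 0 for shDCBLD2. Markers of A549-type epithelium were abundant in all 4: the 12 listed genes all passed the filter and summed to 28752 CPM in the overexpression-labelled library, 23113 with the vector, 31009 in scramble control and 17868 in shDCBLD2, with KRT8, KRT18, ALDH1A1 and ALDH3A1 at the top. Of 18 markers of embryonic kidney-type cells such as the virus producer line, 15 passed the filter, with 6 called higher and 1 (INA) lower than with the vector. Their median log2 ratio was 0.83 to the vector and 1.46 to scramble control. Of the 15, 3 were below 1 CPM in each other library and so passed through the overexpression-labelled library alone. With the filter on the other 3 libraries the median ratio to the vector was 0.65. The 15 markers summed to 1313 CPM in the overexpression-labelled library and to between 1162 and 1207 CPM in the others. CDKN2A, IRS4 and NEFM had at most 4 counts in every other library, while STMN2, SYT4 and BEX1 of the same list were at 0 in all 4. The marker lists were written with earlier results of these data known, so they are no independent check. CDKN2A, IRS4 and NEFM are also among the highest genes named below. Of 11 fibroblast markers, 5 passed and 3 were called higher (COL1A2, COL3A1 and COL6A3), with DCN and LUM at 4 counts or fewer and FAP at 0 in all 4. POSTN, below the filter, had 42 counts against 0 in each other library. The 5 past the filter, of which 2 were below 1 CPM in each other library, summed to 82.3 CPM against 39.4 to 60.4 CPM elsewhere. Their median log2 ratio to the vector was 2.01, or 0.85 with the filter on the other 3 libraries. Of the blood markers 1 of 11 passed (CD14), with PTPRC and MS4A1 at 0 in each library, and of the endothelial markers none of the 7 found among 8 listed passed. The part of these cell types in the results was not tested.

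By the 2-fold rule 923 genes were called higher (6.61% of those described) and 694 lower (4.97%), or 11.6% in all. The vector and the scramble control, which differ in vector, gave 252 higher (1.8%) and 304 lower (2.18%) by the same rule. With scramble control in place of the vector, 630 genes (4.51%) were called higher in both comparisons and 508 (3.64%) lower in both, comparisons that share the overexpression-labelled library. Among the genes described, 182 were below 1 CPM in each other library and so passed the filter through the overexpression-labelled library alone. With the filter taken over the other 3 libraries, 639 genes were called higher and 720 lower. The median log2 ratio of all genes was -0.02.

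**Figure D1:**
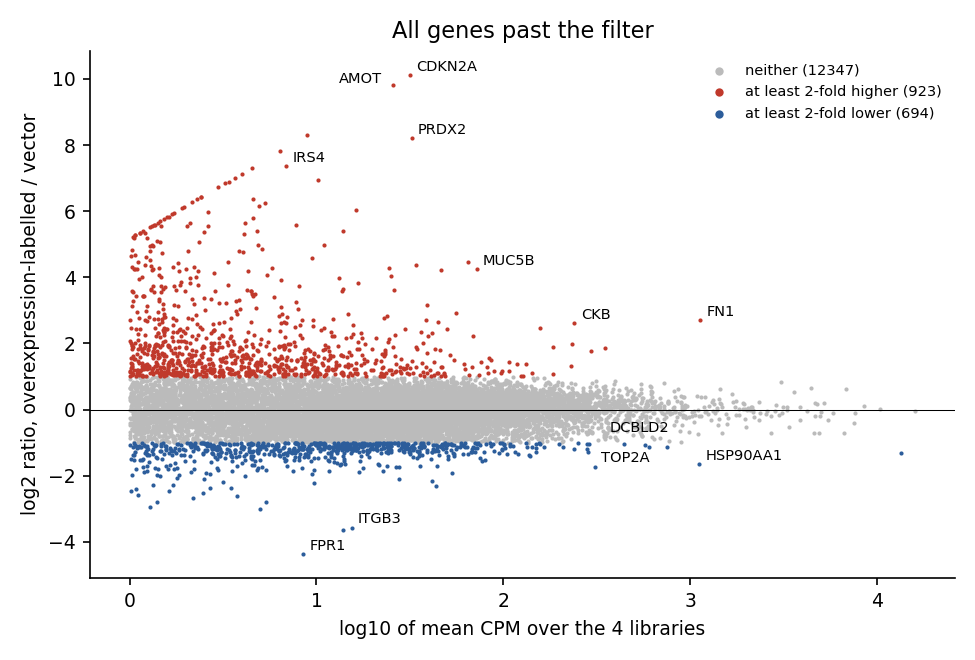
Each point is 1 of the genes past the filter, by the log10 of its mean CPM over the 4 libraries and by its log2 ratio of the overexpression-labelled library to the vector, with 923 genes called higher and 694 lower. CDKN2A and AMOT lie at the top, FPR1 at the bottom, and DCBLD2 lies below 0. 1 gene is not drawn.

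A gradient of base composition ran through the comparison. GC content was taken from the longest GENCODE 29 transcript of each gene, which 13688 of the genes (98.0%) had. The genes were put into 5 groups of like size by GC content. In the group with the lowest, from 28.6% to 41.3%, the median log2 ratio to the vector was -0.54, and 361 of 2738 genes were called lower against 57 higher. In the following groups it was -0.32, 0.00 and 0.22, and in the group above 58.6% it was 0.31, with 289 called higher and 19 lower. So 13.2% of the genes of lowest GC content were called lower and 0.694% of those of highest. Across genes, which are not independent replicates, GC content and the log2 ratio had a Spearman correlation of 0.57, against 0.30 for the vector to scramble control and -0.20 for shDCBLD2 to scramble control, comparisons that share a library. Exonic length had a correlation of -0.07 with the ratio. When the median of each of 20 GC bins was subtracted, a step chosen after seeing the data, 846 genes were called higher and 265 lower, so that the share of higher genes among those called went from 57.1% to 76.1%. Of the calls of the 2-fold rule, 725 higher and 199 lower genes were also made after centring. GC-centred medians are given below beside most of the lists. With 1 library each, a difference between the cells and one of library preparation cannot be told apart.

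**Figure D2:**
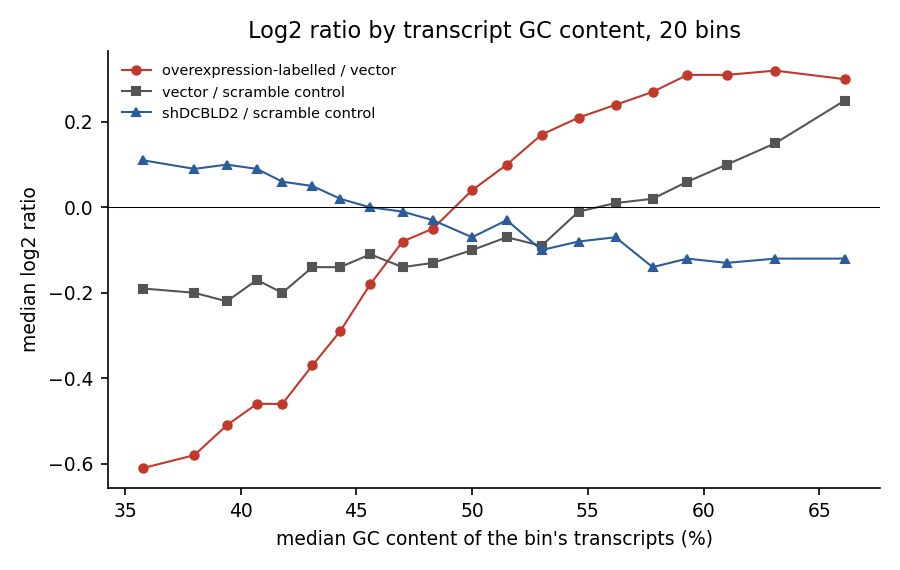
Median log2 ratio of the genes in each of 20 bins of transcript GC content (percent), for 3 pairs of libraries. The line of the overexpression-labelled library to the vector climbs from low to high GC content, the line of the vector to scramble control climbs less, and that of shDCBLD2 to scramble control declines.

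The genes with the highest ratios were at or near 0 in the other 3 libraries. CDKN2A encodes the cell cycle inhibitor p16INK4a and the p53 activator p14ARF. It had 2104 counts in the overexpression-labelled library, 0 with the vector, 0 in scramble control and 0 in shDCBLD2, at least 791-fold higher than the vector, and per length it reached 28.8 FPKM. A549 is known to have lost this locus, as given above, and which cells these reads came from was not tested. AMOT encodes angiomotin, a tight junction scaffold that binds YAP, and had 1709, 0, 3 and 2 counts in the same order, at least 642-fold. PRDX2, a cytosolic peroxiredoxin that reduces hydrogen peroxide, had 2127, 6, 7 and 6 counts, a ratio of 400.0-fold (183 to 1090). These 3 genes were thus expressed at above 100 CPM in the overexpression-labelled library only, where 0.366 CPM was the highest value elsewhere. PRDX2 overlaps HOOK2 in the deposited coordinates, and whether counting used the strand is not given in the sources used here.

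Signaling genes formed part of the same set. MATK, a kinase that inhibits Src family kinases, had 591, 0, 1 and 1 counts, at least 222-fold. IRS4, an adaptor of the insulin and IGF receptors, had 456, 1, 0 and 0 counts, a ratio of 514-fold (91.8 to 20352), and the neighbouring entry RP6-24A23.7 on chromosome X had 421, 0, 0 and 1 counts. CCND2, cyclin D2, had 242, 0, 0 and 2 counts, at least 91.0-fold, and GPC3, a glypican of the cell surface, had 197, 0, 0 and 1 counts, at least 74.0-fold. None of them exceeded 2 counts in another library. TMEM132E, a transmembrane protein of neural and inner ear tissue, reached 5 counts in scramble control, with 296, 0, 5 and 0 counts.

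Genes of chromatin, mitochondria and the neuronal cytoskeleton completed it. PRMT6, an arginine methyltransferase of histone H3, had 263, 0, 1 and 0 counts, at least 98.8-fold. ATAD3B, an ATPase of the mitochondrial inner membrane, had 668, 4, 2 and 2 counts, a ratio of 188-fold (73.2 to 693). NEFM, the medium neurofilament chain, had 221, 0, 1 and 4 counts and the homeobox gene UNCX had 216, 0, 0 and 0 counts. LRRC61 had 159, 0, 0 and 0 counts and overlaps ZBED6CL. In each of them the overexpression-labelled library was the only library above 5 counts.

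The sequence before the start of a pair of these genes that were near 0 in the other libraries is shown, with that of FPR1, the gene with the lowest ratio, for the density of CG dinucleotides, which are printed in capitals. The sequences are the 250 bases upstream of the RefSeq start on GRCh38.p14, read 5′ to 3′ on the gene's strand. They lie at chr19:12801801-12802050 (minus strand) for PRDX2, chr1:107056424-107056673 (plus strand) for PRMT6 and chr19:51751879-51752128 (minus strand) for FPR1.
PRDX2: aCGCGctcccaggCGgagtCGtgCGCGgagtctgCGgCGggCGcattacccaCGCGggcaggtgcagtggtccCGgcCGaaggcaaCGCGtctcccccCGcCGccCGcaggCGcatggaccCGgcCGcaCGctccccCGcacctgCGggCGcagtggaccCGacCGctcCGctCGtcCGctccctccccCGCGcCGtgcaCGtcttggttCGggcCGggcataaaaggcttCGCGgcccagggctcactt
PRMT6: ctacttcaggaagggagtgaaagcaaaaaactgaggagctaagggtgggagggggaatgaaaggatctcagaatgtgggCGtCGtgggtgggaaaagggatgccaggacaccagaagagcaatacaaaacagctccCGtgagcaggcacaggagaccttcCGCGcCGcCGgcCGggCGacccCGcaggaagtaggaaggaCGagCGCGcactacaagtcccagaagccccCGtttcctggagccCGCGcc
FPR1: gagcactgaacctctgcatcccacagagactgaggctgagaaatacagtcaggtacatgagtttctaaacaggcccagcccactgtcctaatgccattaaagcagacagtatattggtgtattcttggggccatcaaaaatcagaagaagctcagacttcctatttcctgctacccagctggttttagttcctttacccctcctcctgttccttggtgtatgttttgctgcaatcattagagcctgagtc
PRDX2 held 38 CG dinucleotides at 75.2% GC, PRMT6 16 at 60.4% and FPR1 0 at 46.4%. Over 300-base windows, 9698 of the genes past the filter matched a promoter by symbol, with a median of 27 CG dinucleotides and 65.7% GC. The 9 matched of the 14 highest genes named had medians of 25 and 67.7%, and the 12 matched of the 15 lowest had 29 and 60.5%. No methylation was measured.

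**Figure D3:**
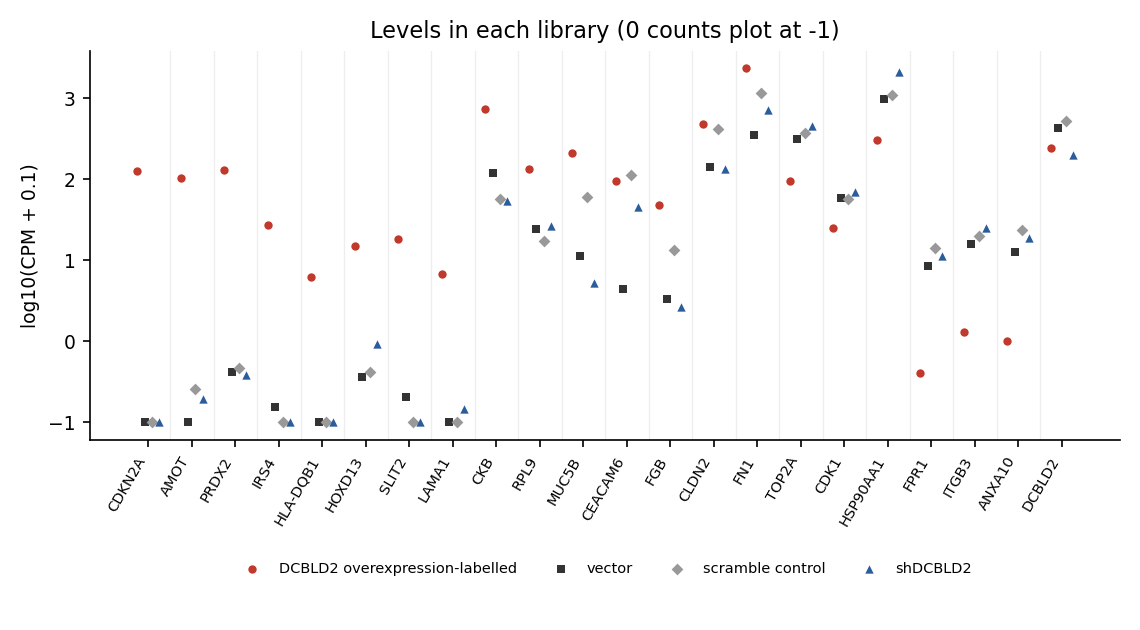
Level of selected genes in each of the 4 libraries, as log10 of CPM plus 0.1, so that 0 counts lie at -1. From CDKN2A to LAMA1 the overexpression-labelled library is the only one above 1 CPM, from MUC5B to CLDN2 the vector and shDCBLD2 lie below the other 2, and from TOP2A to ANXA10 the overexpression-labelled library is the lowest.

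The genes with the lowest ratios had clear levels in each of the other 3 libraries. FPR1, the formyl peptide receptor of phagocytes, stood at 5 counts in the overexpression-labelled library, 158 with the vector, 269 in scramble control and 239 in shDCBLD2, a log2 ratio of -4.37 (-6.45 to -3.56). ANXA10, an annexin of gastric-type epithelium, had 15, 235, 443 and 408 counts and a log2 ratio of -3.64 (-4.66 to -3.05). ITGB3, the beta3 integrin that pairs with the alpha V chain, had 20, 291, 381 and 538 counts and one of -3.57 (-4.42 to -3.04). VCAM1, an adhesion molecule for leukocytes, had 10, 105, 181 and 91 counts and one of -3.0 (-4.32 to -2.28). All 4 were above the overexpression-labelled library in each of the other libraries by at least 4 times in CPM.

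The other low genes were less uniform across controls. GFRA1, the GDNF coreceptor, had 29, 238, 92 and 48 counts, so the vector was the highest of the 4, and its ratio of -2.79 (-3.47 to -2.30) became -1.41 against scramble control. The vector was also the highest for ANKRD29 (-2.23, and -1.28 against scramble control) and MNS1 (-2.37 and -1.48). ACKR3, a decoy receptor for CXCL12, had 92, 398, 1301 and 2529 counts, with -1.92 (-2.28 to -1.61) against the vector and -3.59 against scramble control. KCNMA1, the BK potassium channel, had 135, 769, 597 and 2022 counts and a ratio of -2.32 (-2.61 to -2.07). RPL22L1, a paralog of a ribosomal protein, had 211, 1067, 657 and 1343 counts and one of -2.16 (-2.39 to -1.95), and DOCK10, a guanine nucleotide exchange factor, had 95, 469, 528 and 1138 counts and one of -2.11 (-2.46 to -1.81). PARPBP (-1.90), CRISPLD2 (-1.86), CENPK (-1.86) and ANPEP (-1.85) were the remaining genes of the lowest 15. ITGB3 overlaps EFCAB13 and MNS1 overlaps TEX9.

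Functions were followed in lists of genes. Of 60 lists that do not mark a cell type, 43 stood at least 0.25 from the median of all genes or held over 1.5 times the share of called genes, and they are described in turn. The other 17 had medians between -0.27 and 0.22. These medians are before GC centring. The lists were chosen with earlier results of these data known, so 43 of 60 does not measure how many functions differ. In short lists few calls suffice, as with 3 of 17 contractile genes. Each count is to be read against the 6.61% of all genes called higher and the 4.97% called lower, and each median against -0.02. Calls are against the vector, and where scramble control is not mentioned a call may not have held against it. Members that passed the filter through the overexpression-labelled library alone numbered 5 among solute carriers, 4 among HOX genes, 3 among neuronal genes, 2 in each of 7 other lists and at most 1 in the rest. Some of the genes called overlap another entry, so their counts are uncertain, among them C3 (GPR108), CLDN2 (MORC4), GPX2 (CHURC1), VTN (SARM1), FAS (ACTA2), PRIM1 (NACA), TAGLN (PCSK7), HLA-F and LOXL1 (antisense RNAs), and SYN2 and TIMP4, which overlap each other.

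Mucins and airway secretory products were called higher almost throughout. These are the gel-forming and membrane mucins and the antimicrobial proteins that goblet and club cells release. Of 28 listed genes 14 passed the filter, 13 were called higher and 0 lower, with a median log2 ratio of 2.81 (GC centred 2.53). The median was 2.17 with the filter on the other 3 libraries. MUC5B, a gel-forming mucin of the airways, stood at 212 CPM in the overexpression-labelled library, 11.1 with the vector, 60 in scramble control and 5.11 in shDCBLD2, a log2 ratio of 4.25 (4.06 to 4.47). MUC5AC, its surface goblet cell counterpart, stood at 377 CPM in the overexpression-labelled library, 68.6 with the vector, 152 in scramble control and 34.1 in shDCBLD2, one of 2.46 (2.37 to 2.55). The adhesion molecule CEACAM5 had 302, 5, 201 and 41 counts, a ratio of 5.59 (4.85 to 7.72), CEACAM6 had 1598, 80, 2138 and 982 counts, one of 4.46 (4.17 to 4.84), and the airway protein BPIFB1 had 91, 1, 5 and 0 counts, one of 103-fold (18.0 to 4097). The protease inhibitor SLPI (4.05, 3.77 to 4.4), the siderophore binder LCN2 (3.16, 2.98 to 3.36), and the goblet cell factor SPDEF (1.53, 1.32 to 1.75) were higher too, and MUC13 (1.5) and AGR2 (1.30), a disulfide isomerase for mucins, were the lowest of those called. The size of the difference depended on the control. The vector was itself below scramble control for 7 of the 14 genes, with a median of -1.16, and against scramble control the median was 1.24 with 9 genes called higher in both comparisons. CEACAM6 was no higher than scramble control, at -0.22, while SLPI (2.86), LCN2 (2.60) and MUC5B (1.82) were. MUC5B, MUC5AC, SLPI and LCN2 were lowest of the 4 libraries in shDCBLD2.

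Plasma protein genes, which hepatocytes secrete and A549 cells also express, showed a like order of libraries. In coagulation and fibrinolysis, 9 of 20 genes were called higher and 1 lower (median 0.71, GC centred 0.85). The median was 0.48 with the filter on the other 3 libraries. The 3 fibrinogen chains, which form the clot, were all called higher. FGB had 791, 61, 252 and 55 counts, FGG had 668, 58, 168 and 69 counts and FGA had 1305, 119, 317 and 51 counts, with log2 ratios of 3.82 (3.49 to 4.27), 3.65 (3.31 to 4.11) and 3.6 (3.36 to 3.91). Against scramble control they were 1.84, 2.18 and 2.24 and the vector was again below scramble control. TFPI2 (1.15), F3 (1.11) and PLAUR (1.02) were the smallest called rises, and the factor VIII gene F8 was the member called lower (-1.25, -1.82 to -0.77). F8 was not called lower against scramble control. Of 11 apolipoproteins and other liver-type proteins 6 were called higher and 1 lower, with a median of 1.02 that was 1.53 after GC centring and 0.43 against scramble control, where 1 gene stayed called. TM4SF4 stood at 90.6, 14.4, 61.8 and 12.4 CPM in the order overexpression-labelled, vector, scramble control and shDCBLD2, VTN, vitronectin, at 103, 20.6, 30.5 and 10.9 CPM and RBP4, the retinol carrier, at 13.7, 3.58, 8.43 and 1.49 CPM. APOC1 was the member called lower, at 12.3, 38.7, 18.1 and 16 CPM (-1.65, -1.89 to -1.43), with APOH (1.39) and CP (1.02) the smallest of those called higher. Among 11 complement genes, 4 were called higher and 0 lower (median 0.46, GC centred 0.52). C3, the central complement component, rose from 13.6 to 50.1 FPKM, with 417, 113, 149 and 61.2 CPM in the 4 libraries and a log2 ratio of 1.88 (1.81 to 1.95). CFB (3.04, 2.68 to 3.53), a protease of the alternative pathway, and the adipsin gene CFD (1.17, 1.09 to 1.26) were higher too.

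The transcription factors of endoderm and liver, which drive such genes in hepatocytes and gut, were called higher for 6 of 15 and lower for 0 (median 0.71, GC centred 0.83). CDX2, an intestinal homeobox factor, had 247, 21, 16 and 4 counts and a ratio of 3.6 (3.09 to 4.45). GATA6 (1.51, 1.14 to 1.94) was next among those named, and FOXA1 (1.04), GATA4 (1.07) and HNF4A (1.09) were the lowest of those called. Against scramble control 3 stayed called, the median was 0.02, and HNF4A stood at -0.40. Tight junction genes had 6 of 19 called higher and 1 lower (median 0.37, GC centred 0.36). CLDN2, a cation-selective claudin, stood at 485, 142, 417 and 134 CPM, so the overexpression-labelled library and scramble control were alike and both others low. CLDN4 (1.61, 1.37 to 1.88), TJP3 (1.48, 1.22 to 1.76), EPCAM (1.20) and CGN were also higher, and the polarity gene PARD3 was lower (-1.06, -1.15 to -0.97, and -0.97 against scramble control). Against scramble control 3 of the 6 stayed called higher, and the median was 0.22. Of 5 alveolar genes past the filter, PDPN, a type I cell marker, was called, with 143, 0, 0 and 0 counts.

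Some genes of antigen presentation were called higher. MHC class II molecules present peptides to CD4 T cells and class I molecules to CD8 T cells. The 4 class II genes past the filter, of 10 listed, were all called higher, 2 of them below 1 CPM elsewhere, with a median of 3.61, or 3.34 with genes at 0 placed at their bound. Filtered on the other 3 libraries, without the genes near 0 there, the median was 1.41. HLA-DQB1 had 101, 0, 0 and 0 counts and HLA-DRB1 had 87, 0, 0 and 0 counts. The peptide-loading genes HLA-DMB, with 550, 195, 175 and 36 counts, and HLA-DMA, with 171, 85, 72 and 31 counts, were expressed in all 4 libraries, lowest in shDCBLD2. Among class I and processing genes 3 of 14 were called higher and 0 lower, with a median of 0.23 (GC centred 0.16). HLA-B stood at 39.5 CPM in the overexpression-labelled library, 5.77 with the vector, 2.04 in scramble control and 1.58 in shDCBLD2, a ratio of 2.75 (2.48 to 3.08), HLA-C at 104, 20.5, 13.7 and 7.89 CPM, one of 2.33 (2.18 to 2.50), and HLA-F had one of 1.31 (0.97 to 1.70). HLA genes are polymorphic and similar, so their counts are uncertain, as reads of an allele unlike the reference can be lost or go to a relative.

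Interferon-stimulated genes split. Of 29 past the filter 5 were called higher and 3 lower, with a median of 0.02. The tethering factor BST2 had 97, 7, 14 and 3 counts and a ratio of 3.61 (2.87 to 5.32), GBP2 one of 2.12 (1.70 to 2.66) and IFITM1 one of 1.92 (1.60 to 2.30), while HERC5 (-1.07, -1.59 to -0.63), HERC6 (-1.40, -2.09 to -0.86) and DDX60 (-1.80, -2.84 to -1.09) were lower than the vector. None of those 3 was called against scramble control. Among NF-kB targets, cytokines and chemokines 6 of 23 were called higher, all of them in both comparisons, and 3 lower. IL32 (2.29, 2.06 to 2.56), the monocyte chemokine CCL2 (1.75, 1.56 to 1.96), CCL5 (1.51, 0.95 to 2.23), the neutrophil chemokines IL8 (1.37, 1.20 to 1.55) and CXCL1 (1.28, 1.18 to 1.39) and ICAM1 (1.12, 0.72 to 1.57) were higher. CXCL1 stood at 149, 61.0, 45.9 and 18.1 CPM. Lower were VCAM1, described above, IL6 (-1.16, -2.27 to -0.35) and BIRC3 (-1.02, -1.33 to -0.73). Of these, VCAM1 alone was also called lower against scramble control.

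Matrix genes were higher as a group. Collagens and laminins form the interstitial matrix and the basement membrane. Of 27 collagen chains past the filter 11 were called higher, 7 of them in both comparisons, and 1 lower, also in both. The median was 0.82 against the vector, 0.80 against scramble control and 0.72 after GC centring. COL1A2 had 67, 0, 17 and 1 counts, at least 25.2-fold, COL11A1 had 300, 30, 30 and 50 counts, a ratio of 3.41 (2.95 to 4.09), and COL3A1 had 68, 6, 9 and 18 counts, one of 3.28 (2.48 to 5.17). COL12A1 (1.12), the basement membrane chain COL4A4 (1.08) and COL26A1 (1.06) were the smallest rises, and COL20A1 was lower (-1.59, -3.27 to -0.60). Of 35 laminins and other matrix proteins 10 were called higher, all of them in both comparisons, and 2 lower (median 0.57, GC centred 0.37). FN1, fibronectin, was the most abundant, at 2329 CPM in the overexpression-labelled library, 355 with the vector, 1147 in scramble control and 713 in shDCBLD2, a log2 ratio of 2.71 (2.68 to 2.75) to the vector and 1.02 to scramble control. LAMA1, the laminin chain of early basement membranes, had 111, 0, 0 and 1 counts. LOXL1, a collagen crosslinker, had 54, 2, 9 and 14 counts, SPARC, a collagen-binding matricellular protein, had 455, 131, 105 and 96 counts, and NID1, nidogen, had 997, 254, 217 and 274 counts. LAMA3, an epithelial laminin chain, went the other way, with 151, 562, 481 and 660 counts and a ratio of -1.71 (-1.99 to -1.46), while LAMB3, a chain of the same laminin, was higher (1.79, 1.65 to 1.94). EFEMP1, a fibulin, was lower than with the vector (-1.10, -1.30 to -0.92) but was not called lower against scramble control. LOX (1.51) and FBLN2 (1.53) were the other small rises.

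Enzymes and receptors of the matrix followed. Of 13 matrix metalloproteinases and inhibitors 4 were called higher and 0 lower, with a median of 0.29 that was -0.02 after GC centring. The inhibitor TIMP3 had 141, 7, 7 and 46 counts, a ratio of 4.14 (3.42 to 5.85), MMP7, matrilysin, one of 2.76 (2.54 to 3.01), MMP28 one of 2.64 (2.26 to 3.16) and TIMP4 one of 1.19 (0.91 to 1.49). Integrins had 4 of 21 called higher, 3 of them in both comparisons, and 2 lower, 1 of them in both. The collagen receptor chain ITGA11 (2.38, 1.99 to 2.90), ITGAX (2.13, 1.55 to 2.98), the laminin receptor chain ITGA7 (1.84, 1.38 to 2.43) and ITGB8 (1.78, 0.96 to 3.08) were higher, against ITGB3 and ITGA10 (-1.14, -1.87 to -0.54). Contractile genes of smooth muscle type had 3 of 17 called higher. TAGLN stood at 113, 24.2, 34.9 and 102 CPM, and TNS1 (1.52) and SYNPO2 (1.01) were no higher than scramble control (-0.07 and 0.12).

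Axon guidance genes were more often called higher than lower. Semaphorins, netrins, slits and ephrins are secreted or membrane cues, and plexins, UNC5, ROBO and EPH proteins are their receptors; semaphorins also bind the neuropilins, the relatives of DCBLD2. Of 50 guidance genes past the filter 19 were called higher and 1 lower, 14 of the higher ones in both comparisons, with a median of 0.59 (0.41 against scramble control, 0.47 GC centred). The median was 0.38 with the filter on the other 3 libraries and 0.32 at a mean of at least 5 CPM. Among the cues SLIT2 had 302, 2, 0 and 0 counts, a ratio of 170.0-fold (46.7 to 1412), SEMA6A had 75, 1, 6 and 5 counts and NTN1, netrin 1, had 298, 18, 38 and 20 counts. SEMA3B stood at 97.2, 27.5, 37.8 and 10.8 CPM, a log2 ratio of 1.82 (1.68 to 1.97). Among the receptors UNC5B, which binds netrin, stood at 40.5, 1.18, 1.41 and 0.836 CPM, a log2 ratio of 4.98 (4.50 to 5.79), and PLXNA2 at 14.9, 2.35, 6.8 and 1.9 CPM, one of 2.61 (2.19 to 3.16). Among the smallest rises were ROBO3 (1.07), SEMA4G (1.06) and SEMA6C (1.05), and SEMA3E was lower (-1.27, -1.94 to -0.73).

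Of 25 cadherins and protocadherins 11 were called higher and 1 lower. PCDH10 had 345, 3, 6 and 0 counts, a ratio of 130.0-fold (44.0 to 632), the intestinal cadherin CDH17 had 266, 18, 149 and 23 counts and PCDH1 had 319, 47, 68 and 19 counts. PCDHAC1 (1.62), PCDHA3 (1.20) and PCDHA4 (1.12) belong to a cluster whose entries overlap and share exons, so their counts are uncertain, and CDH19 had 2, 28, 41 and 40 counts. The list had a median of 0.70 against the vector but 0.08 against scramble control, since 8 of its genes were lower with the vector than in scramble control, and of 0.43 with the filter on the other 3 libraries. After GC centring it was 0.63. Neuronal and neuroendocrine genes gave 11 higher and 1 lower of 20, with medians of 1.10 and 0.42 in the same order and 0.99 after GC centring. Beside NEFM, the adhesion molecule NCAM1 had 85, 3, 0 and 1 counts and the synapsin gene SYN2 had 64, 14, 11 and 14 counts. SCG2 (1.29), SYT1 (1.18) and NLGN3 (1.02) were the smallest rises, and the intermediate filament gene INA was lower (-1.10, -1.33 to -0.88), as it was against scramble control (-1.33).

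Ion channels and creatine genes contributed further members. Of 33 potassium channel genes 11 were called higher and 3 lower, with a median of 0.43 that was 0.12 after GC centring and 0.06 with the filter on the other 3 libraries. The inward rectifier gene KCNJ16 had 71, 7, 41 and 3 counts and KCNJ2, of the same family, had 65, 9, 42 and 5 counts. The lower ones were KCNMA1, KCNE4 (-1.85, -3.39 to -0.95) and KCNH1 (-1.5, -2.36 to -0.86). Creatine genes serve the phosphocreatine buffer of cellular ATP. Of 6 past the filter 4 were called higher, all in both comparisons, with a median of 2.05 (GC centred 1.74), or 1.05 with the filter on the other 3 libraries. CKB, the cytosolic brain-type creatine kinase, stood at 733 CPM in the overexpression-labelled library, 119 with the vector, 56.5 in scramble control and 53.8 in shDCBLD2, a log2 ratio of 2.63 (2.56 to 2.69). The mitochondrial kinases CKMT1B, with 245, 13, 26 and 10 counts, and CKMT1A, with 113, 7, 16 and 9 counts, are near-identical copies whose counts cannot be fully separated, and the transporter SLC6A8 had a ratio of 1.47 (1.31 to 1.64).

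Homeobox genes of the HOX clusters, which set position along the body axis, were called higher or not called, with 23 ratios above 0 and 6 below. Of 29 past the filter, 4 of them below 1 CPM elsewhere, 12 were called higher and 0 lower, 10 in both comparisons, with a median of 0.76 (GC centred 0.72). The median was 0.53 with the filter on the other 3 libraries. HOXD13 had 247, 5, 6 and 18 counts, a ratio of 55.7-fold (23.5 to 173), HOXA11 had 77, 5, 4 and 2 counts and HOXA9 had 59, 5, 2 and 5 counts. HOXB9, the most abundant of those called, stood at 77.5, 29, 18.8 and 22.2 CPM (1.42, 1.27 to 1.57). HOXB2 (1.41), HOXA10 (1.35) and HOXB5 (1.12) were the smallest rises. The HOX entries overlap each other and antisense RNAs, so their counts are uncertain. Among 17 imprinted genes, with a median of 0.55 (GC centred 0.28), 3 were called higher and 0 lower, namely H19 (1.34, 1.12 to 1.58), L3MBTL1 (1.13, 0.44 to 2.01) and PLAGL1 (1.01, 0.73 to 1.32).

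Growth factor systems differed by family. Among ErbB receptors and ligands, 2 of 12 were called higher and 4 lower (median -0.24). The ligands EREG, with 306, 984, 1007 and 1682 counts, NRG1, with 611, 1711, 1970 and 3139 counts, and AREG, with 78, 215, 152 and 161 counts, were lower at -1.51 (-1.70 to -1.33), -1.31 (-1.45 to -1.18) and -1.27 (-1.68 to -0.91), as was BTC at -1.0 (-2.28 to -0.06), while NRG4 (1.16, 0.28 to 2.35) and the receptor ERBB3 (1.07, 0.78 to 1.39) were higher. Against scramble control 2 of the 4 lower genes and 0 of the 2 higher ones stayed called, and ERBB3 was at -0.24. Of 11 FGF and PDGF genes past the filter the receptors FGFR2, with 132, 22, 65 and 6 counts, and FGFR3, with 1091, 256, 394 and 111 counts, were called higher. In the insulin and IGF list 2 of 18 were called, IRS4 and the binding protein IGFBP5, with 302, 6, 7 and 5 counts and a ratio of 56.8-fold (25.8 to 156).

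In the TGF-beta, activin and BMP list 9 of 42 were called higher, 8 of them in both comparisons, and 2 lower, 1 of them in both. The median was 0.02. BMP7, a ligand of kidney and skeletal development, had 461, 37, 25 and 24 counts, a log2 ratio of 3.74 (3.33 to 4.34), and BMP2 (1.42), BMP6 (1.28) and BAMBI (1.45), a decoy receptor, were the smallest rises. The BMP target ID4 (2.52, 2.17 to 2.98) and the transducer SMAD9 (2.39, 1.79 to 3.30) were higher too, and the activin antagonist FST (-1.82, -2.24 to -1.47) and TGFB2 (-1.09, -1.25 to -0.94) were lower. Of 14 AP-1 and immediate early genes EGR1 (2.43, 1.67 to 3.8), ATF3 (1.54, 1.14 to 2.02) and JUN (1.49, 1.38 to 1.60) were called higher and FOSL1 (-1.03, -1.22 to -0.84) lower, with a median of 0.26 that went to 0.00 after GC centring. JUN stood at 146, 51.9, 51.2 and 96.2 CPM. FOSL1 was not called lower against scramble control.

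Genes of cell division were lower. Cyclin-dependent kinases drive entry into mitosis, MCM helicases and ribonucleotide reductase serve DNA replication, and topoisomerase II alpha untangles chromosomes. All 55 listed genes passed the filter, and 14 were called lower and 0 higher, 12 of them in both comparisons. The median log2 ratio was -0.64 against the vector, -0.74 against scramble control and -0.47 after GC centring. TOP2A stood at 95.7 CPM in the overexpression-labelled library, 317 with the vector, 375 in scramble control and 453 in shDCBLD2, a log2 ratio of -1.73 (-1.81 to -1.65). TTK, a spindle checkpoint kinase, had 62, 208, 262 and 388 counts, one of -1.54 (-2.01 to -1.16), and KIF23, a kinesin of the midbody, stood at 23.6, 58.0, 78.6 and 110.0 CPM, one of -1.29 (-1.47 to -1.13). CDK1 had 416, 1102, 1073 and 1490 counts, one of -1.23 (-1.40 to -1.07). The proliferation marker MKI67 had 1217, 2813, 5483 and 6059 counts, so its ratio of -1.03 to the vector became -1.97 against scramble control, and PRIM1 (-1.02) and MCM6 (-1.03) were the smallest falls. Each of these 7 genes was lowest in the overexpression-labelled library and highest or next to highest in shDCBLD2. After GC centring TOP2A was at -1.21 and TTK at -1.09, while CDK1 was at -0.62 and KIF23 at -0.83.

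The promoters of 3 of these genes are shown for motifs known from G2 and M phase genes, the CCAAT box (CCAAT or its reverse complement ATTGG) and the cell cycle homology region (TTTGAA, its reverse complement TTCAAA, or the palindrome TTCGAA), printed in capitals. They are the 250 bases upstream of the RefSeq start on GRCh38.p14, at chr17:40417897-40418146 (minus strand) for TOP2A, chr10:60778081-60778330 (plus strand) for CDK1 and chr15:69414099-69414348 (plus strand) for KIF23, read 5′ to 3′ on the gene's strand.
TOP2A: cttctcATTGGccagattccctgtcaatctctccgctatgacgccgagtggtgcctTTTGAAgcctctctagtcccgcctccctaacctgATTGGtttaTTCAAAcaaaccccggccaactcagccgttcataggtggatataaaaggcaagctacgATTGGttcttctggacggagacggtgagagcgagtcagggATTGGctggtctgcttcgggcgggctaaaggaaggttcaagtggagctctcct
CDK1: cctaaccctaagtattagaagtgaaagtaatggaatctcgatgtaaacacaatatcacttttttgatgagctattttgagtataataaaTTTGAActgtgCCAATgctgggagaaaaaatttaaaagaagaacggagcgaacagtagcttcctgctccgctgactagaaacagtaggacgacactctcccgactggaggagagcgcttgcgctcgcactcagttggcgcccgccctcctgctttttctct
KIF23: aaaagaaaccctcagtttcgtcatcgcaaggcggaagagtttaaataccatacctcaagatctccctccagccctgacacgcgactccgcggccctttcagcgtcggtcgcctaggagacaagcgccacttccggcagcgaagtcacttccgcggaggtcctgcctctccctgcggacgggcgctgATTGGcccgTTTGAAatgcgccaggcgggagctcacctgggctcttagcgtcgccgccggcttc
In the 300-base windows, 12 of the 13 cell cycle genes called lower that matched a promoter held TTTGAA or TTCGAA on either strand, 12 held CCAAT and 11 held both. Of the 33 matched genes of the list that were not called, 5 held TTTGAA or TTCGAA, 21 held CCAAT and 4 held both. Among the 9698 matched genes past the filter 10.7% held TTTGAA or TTCGAA, 36.4% CCAAT and 4.57% both, and among all 27195 promoters 16.6%, 35.7% and 6.57%. The share with TTTGAA or TTCGAA was 24.9% of the 465 matched genes called lower and 10.7% of the 610 called higher. Within the group of transcripts of lowest GC content it was 26.7% of 281 genes called lower and 13.2% of 1764 others, and within the next group 26.8% of 123 and 12.6% of 1872. In the 3 groups of higher GC content it was 17.6% of 34 and 9.22% of 1823, then 13.3% of 15 and 8.6% of 1883, and last 0 of 9 and 6.36% of 1823. A further motif (TTTCGCGC, TTTGGCGC or TTTCCCGC) was in 3 of the 13 cell cycle genes called lower and 17 of the list's 46 matched. It was in 4.3% of all matched genes called lower and 4.54% of those past the filter. The 13 had a median promoter GC content of 57.7%, against 63.5% for the list and 65.7% past the filter. The motif shares were not split by promoter GC content. A match is a description of letters in a window, not a bound site.

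Regulators of the restriction point differed among themselves. Among 14 D-type cyclins and CDK inhibitors, with a median of 0.23 (GC centred -0.03), CDKN2A and CCND2 were called higher, and CDK6, with 313, 761, 1202 and 1376 counts (-1.10, -1.30 to -0.92), RB1, with 154, 386, 454 and 556 counts (-1.14, -1.43 to -0.88), and RBL1, with 88, 234, 407 and 554 counts (-1.22, -1.61 to -0.88), lower. In the p53 target list 1 of 26 was called, the death receptor gene FAS, lower at -1.70 (-2.42 to -1.15), and the median was -0.34 against the vector and -0.10 against scramble control. FAS was not called lower against scramble control.

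Cytosolic chaperone and proteasome genes had medians below 0, while 23 endoplasmic reticulum folding genes had a median of -0.01 with 1 called higher and 0 lower. Of 21 chaperonin and heat shock genes 1 was called higher and 2 lower, with a median of -0.51 (GC centred -0.40, -0.60 against scramble control). HSP90AA1, the stress-inducible cytosolic HSP90, stood at 308 CPM in the overexpression-labelled library, 964 with the vector, 1092 in scramble control and 2096 in shDCBLD2, a log2 ratio of -1.65 (-1.69 to -1.60), so that the libraries spanned a wide range with shDCBLD2 at its top. HSPH1 was lower (-1.01, -1.17 to -0.85) and the small heat shock gene HSPB8 higher (1.23, 0.96 to 1.52). Of 37 proteasome subunits, with a median of -0.30 (GC centred -0.27), 0 were called higher and 4 lower, 3 of the 4 in both comparisons. These were PSMC6 (-1.26, -1.46 to -1.08), PSMA3 (-1.13, -1.29 to -0.99), PSMA2 (-1.13, -1.49 to -0.81) and PSMD14 (-1.06, -1.20 to -0.92).

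Lipid and redox lists differed in sign and had few calls. Cholesterol synthesis and uptake genes had a median of -0.30 with 1 of 25 called higher and 2 lower. The isomerase gene IDI1 (-1.23, -1.48 to -1.0) and the sterol-regulated gene INSIG1 (-1.23, -1.43 to -1.04) were lower. Against scramble control 1 of these 2 stayed called, and the higher gene did not. None of 15 fatty acid synthesis genes was called, with a median of -0.33 against the vector and -0.75 against scramble control. Fatty acid oxidation genes had 0 of 15 called and a median of 0.04, and peroxiredoxins and related enzymes had 2 of 13 called higher and a median of 0.19. NRF2 targets, constitutively high in A549, had a median of -0.34 over 27 genes with 1 higher and 2 lower. GPX2 stood at 385, 97.4, 348 and 102 CPM, close to scramble control, while PIR (-1.33, -1.48 to -1.18) and the glutathione synthesis gene GCLM (-1.26, -1.40 to -1.13) were lower. Of PIR and GCLM, 1 was called lower in both comparisons.

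Lists of xenobiotic and amino acid metabolism were mixed. Of 14 glutathione, glucuronosyl and sulfo transferases GSTM2, with 145, 25, 20 and 21 counts, SULT1A1 (1.06) and UGT1A6 (1.06) were called higher and UGT1A8 (-1.37) lower. The UGT1A entries overlap and share exons, so their counts are uncertain. Of 10 cytochrome P450 genes 1 was called, CYP4F11 (1.10, 0.95 to 1.25), and the median of 0.47 turned to -0.28 against scramble control. Of 28 ATF4 targets and serine synthesis genes 4 were called higher, all in both comparisons, and 1 lower. SESN2, a stress sensor that restrains mTORC1, stood at 52.4, 15.1, 12.5 and 12.9 CPM (1.79, 1.60 to 1.99), CBS, which makes cystathionine, at 129, 49.5, 36.2 and 30.5 CPM (1.38, 1.27 to 1.5), and ATF3 and CHAC1 (1.04, 0.78 to 1.31) were the others, while NUPR1 was lower (-1.05, -1.44 to -0.69). NUPR1 was not called lower against scramble control. The list's median was -0.02. Annexins, S100 proteins and the annexin receptor gene FPR1 gave 2 higher and 3 lower of 22. The 3 lower genes but 0 of the higher ones were called in both comparisons. ANXA13 (2.46, 2.12 to 2.88) and S100P (1.84, 1.61 to 2.10) were higher, and ANXA1 stood at 294, 649, 824 and 643 CPM (-1.14, -1.19 to -1.09), lower beside ANXA10 and FPR1.

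Zinc finger genes on chromosome 19, mostly KRAB repressors, were lower for 17 and higher for 2 of 138, with a median of -0.28. Their transcripts had a median GC content of 43.5%, and after GC centring the median was -0.09. ZNF613 (-1.81, -3.49 to -0.86), ZNF112 (-1.76, -3.61 to -0.75) and ZNF229 (-1.71, -3.14 to -0.83) were the lowest, ZNF235 (1.15, 0.25 to 2.41) and ZNF426 (1.06, 0.16 to 2.26) were the higher ones, while ZNF507 (-1.05, -1.35 to -0.78) was the smallest fall. The first 5 had under 60 counts in each library. Of 71 cancer-testis genes 3 passed the filter and none was called (median -0.66, GC centred -0.19).

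Lists of basal machinery had few calls. Of 80 cytosolic ribosomal protein genes 1 was called higher, RPL9, with 2200, 452, 330 and 562 counts and a ratio of 2.45 (2.31 to 2.61), and the median was -0.04. RPL9 has near-identical processed copies, so its count is uncertain. Nuclear respiratory chain subunits had 0 of 78 called (median -0.03), mitochondrial ribosomal proteins 0 of 75 (median -0.16), and the 13 protein-coding mitochondrial genes 0 (median -0.05). Of 20 aminoacyl-tRNA synthetases RARS (-1.35, -1.52 to -1.19) and TARS (-1.03, -1.15 to -0.90) were called lower, with a median of -0.26. Solute carriers, the largest list, had 16 of 214 called higher and 7 lower, with a median of 0.22.

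**Figure D4:**
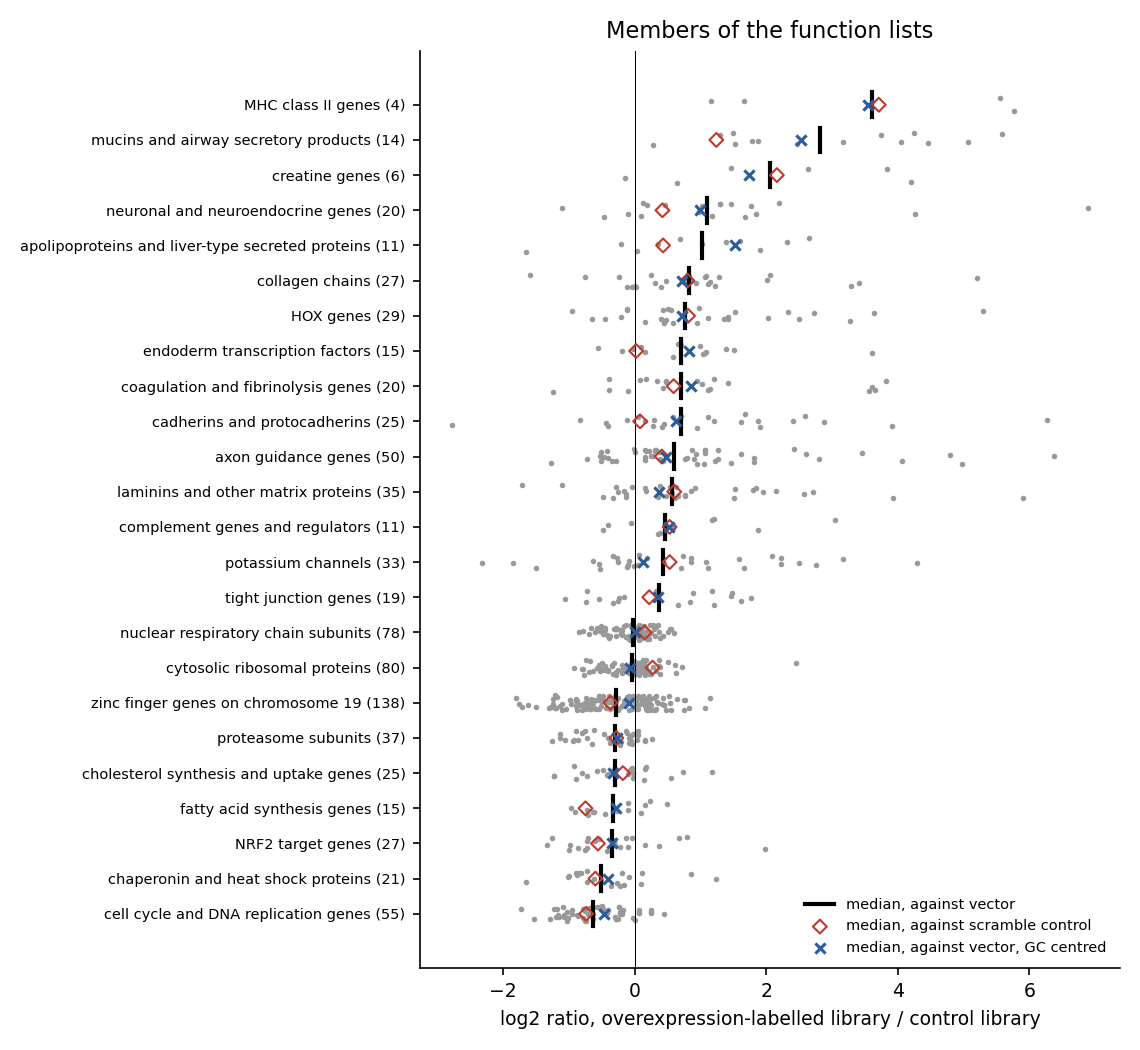
Log2 ratios of the overexpression-labelled library to the vector for the members of 24 lists (grey points, number past the filter in parentheses), with the list median (black bar), its median against scramble control (open diamond) and its GC-centred median (cross). MHC class II genes, of which 2 of 4 passed the filter only through the overexpression-labelled library, have the highest median and cell cycle genes the lowest of the lists drawn, and for mucins and cadherins the diamond lies well to the left of the bar.

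The deposited annotation of each gene with Gene Ontology terms gave a view that was not limited to the lists. Among 717 terms with at least 30 genes past the filter, extracellular matrix structural constituents had the highest GC-centred median, 0.72, with 16 of 36 genes called higher (44.4%) and 0 lower. Serine-type endopeptidase inhibitors followed in molecular function at 0.46, with 11 of 34 called higher and 0 lower, a class that takes in the secreted serpins and SLPI. Ureteric bud development (0.48, with 11 of 37 higher and 3 lower) and inner ear morphogenesis (0.47, with 10 of 34 higher and 1 lower) were the highest of the processes. Golgi lumen, where secreted mucins and proteoglycans are annotated, stood at 0.38 with 16 of 43 higher and 1 lower. At the other end were DNA strand elongation in replication (-0.38, 4 of 31 lower), the centromeric region (-0.31, 14 of 53 lower) and the condensed kinetochore (-0.31, 14 of 63 lower). The broad term mitotic cell cycle had 56 of 375 genes called lower and 4 higher, with a median of -0.39, or -0.25 after GC centring. Terms share genes and are not independent of each other or of the lists.

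Chromosome medians followed base composition. Without centring they ran from -0.35 on chromosomes 13 and 18 and -0.29 on chromosome 2 to 0.20 on chromosome 19 and 0.30 on chromosome 22, whose genes have median GC contents of 42.4%, 43.7%, 45.1%, 59.2% and 56.6%. After GC centring all 23 lay between -0.12 and 0.13. In runs of 40 neighbouring genes, 25 of 651 GC-centred medians were at least 0.25 above and 11 at least 0.25 below 0, against 2 of 651 beyond 0.25 in either direction for the vector to scramble control. The runs overlap by 20 genes. The highest lay on chromosome 6 from 136878185 to 149970108 (MAP3K5 to KATNA1) at 0.47, where 3 genes were called higher and 3 lower, and it was 0.52 against scramble control. Runs on chromosome 3 between 46710487 and 57204334 reached 0.36 and 0.37, and one on chromosome 1 from 224544552 to 229694442 reached 0.38. The lowest lay on chromosome 5 from 53813589 to 65378377 (SNX18 to ERBB2IP) at -0.38, with 10 genes called lower and 0 higher.

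**Figure D5:**
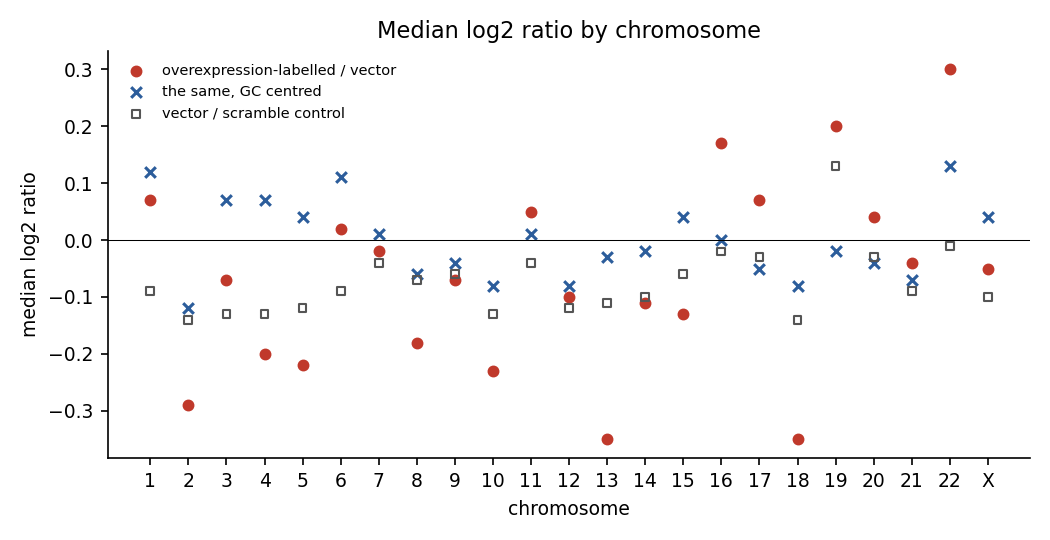
Median log2 ratio of the genes on each chromosome for the overexpression-labelled library to the vector (filled points), the same after GC centring (crosses) and the vector to scramble control (open squares). The filled points run from -0.35 to 0.30 and the crosses from -0.12 to 0.13.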

How the data were processed

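Poly(A) RNA of 4 libraries described as A549 cells, 1 per condition, was sequenced. The authors deposited raw read counts per gene, with FPKM values that they made from exonic gene size and library total, and Gene Ontology annotations. The deposited counts and FPKM of the 4 single-library files equal those of the matrix. The aligner, the counting tool and its use of strand are not given in the sources used here. The submitters' processing notes name the mouse build mm 9, although the gene identifiers are human. No column came from samples of another series (0).

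CPM was computed as counts per 1000000 of each library total (16601633 to 21537283). Genes with a mean of at least 1 CPM over 4 libraries were described. Log2 ratios used a prior count of 2 and intervals were exact Clopper-Pearson at 95%. With 1 library per condition no p-value is given, and intervals and the floor of 3 counts cover counting error only. In simulated counts for 13964 genes, 194 of 200 genes changed 3-fold were called, and 23 of 13764 unchanged genes. These were Poisson counts from a shared rate per gene, without other variation between libraries. The vector against scramble control gave 252 higher and 304 lower calls by the same rule. GC content came from GENCODE 29, promoters from RefSeq on GRCh38.p14. The genes named are DCBLD2, the 15 highest and 15 lowest log2 ratios among genes with at least 100 counts in the higher library that pass the 2-fold rule against both controls and the 3 highest and 3 lowest called members of each list described. Some genes that this rule names are not reported here. Other genes named were chosen after their values were seen. The members and lists were chosen with earlier results of these data known.

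Alternatives were TMM and DESeq2 scaling, other prior counts, filters and thresholds, scramble control as the control and counts drawn down to the smallest total. GC centring, GENCODE protein-coding genes and a filter on the other 3 libraries were added after seeing the data. Python 3.11.15 (numpy 2.4.6, scipy 1.17.1, pandas 2.3.3, matplotlib 3.10.9) and R 4.3.3 (edgeR 4.0.16 and DESeq2 1.42.0, for scaling factors only) were used.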

Additional observations from a re-analysis of the deposited data

How the results depend on the processing

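The 923 higher and 694 lower genes stayed within 1.5 times of these counts with TMM or DESeq2 scaling, prior counts of 0.5 and 5, counts drawn down to the smallest total, protein-coding genes by GENCODE type, without genes that had 3 counts or fewer in each other library, and with the filter taken over the other 3 libraries. With the filter over the other 3 libraries 639 genes were called higher and 720 lower, so higher calls no longer outnumbered lower ones. Genes called higher numbered 1910 without a filter, 350 at a mean of at least 5 CPM and 1863 at a threshold of 1.5-fold. Genes called lower numbered 459 at a mean of at least 5 CPM, 2366 at 1.5-fold, 1394 with scramble control in place of the vector and 265 after GC centring. The log2 ratio of DCBLD2, -0.82, became -1.10 with scramble control and -0.36 after GC centring. Among the list medians, that of cytochrome P450 genes turned to -0.28 with scramble control and that of metalloproteinases to -0.02 after GC centring, where AP-1 genes went to 0.00. Other lists whose sign changed were D-type cyclins after GC centring (0.23 to -0.03), ATF4 targets with scramble control (-0.02 to 0.26), integrins at 5 CPM (0.18 to -0.22) and contractile genes at 5 CPM (0.09 to -0.20), with scramble control (-0.10) and after GC centring (-0.12). TGF-beta genes (0.02) and ATF4 targets also crossed 0 by 0.03 or less. Counting each list under each alternative, markers included, 504 medians moved by less than 0.25 and 57 by 0.25 or more, beside the first 3 named here. Of the 57, 16 arose without a filter and 14 with scramble control. Another 9 arose after GC centring, 9 at 5 CPM and 6 with the filter on the other 3 libraries. TMM and DESeq2 scaling, drawing down and GENCODE protein-coding genes left all 47 lists within 0.25, so the total of 504 rests largely on settings of little effect. Counting chromosomes likewise, 157 medians moved by less than 0.25 and 4 by 0.25 or more, the 4 under GC centring. The cause of these shifts was not tested. A restriction to genes that the files call protein-coding was not run, since the files give no gene type, and leaving out a replicate was not run with 1 library per condition. No paired analysis was possible because each condition had 1 library and no test was made. Depth limits the low genes: 3 counts in the vector library, its floor, were 0.16 CPM.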
